A study of Rattus norvegicus with 16 samples.

Results

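Cell cycle and DNA replication genes were examined in the adrenal gland, heart and pancreas of rats given the disinfectant benzalkonium chloride (BKC), a quaternary ammonium compound, into the trachea. The members were 39 genes chosen by symbol out of 45777 gene rows: 17 that act in S phase, when DNA is copied, and 22 that act in mitosis, when the copies are separated. All 39 symbols were present in each organ. Male wildtype Sprague-Dawley rats were instilled 10 times, every 3 days beginning at 7 weeks of age, with vehicle, 50 µg of BKC per rat (BKC50) or 100 µg per rat (BKC100), and were killed on day 31, which was 24 h after their final dose. What the vehicle contained is not named in the labels. Adrenal gland and heart were sampled at vehicle, BKC50 and BKC100, and pancreas at vehicle and BKC100, with 2 libraries per group. Both adrenal glands of an animal were pooled, and the heart piece was labelled as left ventricle. Whether every library came from a separate rat is not stated for each organ, so p-values measure the spread between these libraries.

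A cell that divides first licenses its origins with the MCM helicase, raises its supply of deoxynucleotides and copies its DNA behind the sliding clamp Pcna, and then builds a spindle and separates its chromosomes under the cyclin B kinase Cdk1. The genes for these steps are switched on in waves: S-phase genes largely through E2F factors, and mitotic genes through the MuvB complexes with B-Myb and FoxM1, which act at the CHR element and with NF-Y at CCAAT boxes. In the adult adrenal gland, division is found mainly among progenitors under the capsule and in the outer cortex, and it responds to pituitary signals. Adult heart muscle cells rarely divide, and division in the heart is found largely among endothelial, connective tissue and blood-derived cells; the acinar cells of the adult pancreas divide slowly.

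The promoters of 4 members are shown, picked because each holds letters of the kind named above for its own wave. Windows of 250 bases before the start were taken from RefSeq (GRCr8), and 31 of the 39 members had at least 1. The mitotic genes Cdk1 (chr20:19265043-19265292, plus strand) and Ccnb2 (chr8:79981659-79981908, minus strand) are printed with CHR matches (TTTGAA or TTCGAA) and CCAAT matches in capitals. The S-phase genes Hells (chr1:246113879-246114128, plus strand) and Mcm2 (chr4:122918095-122918344, minus strand) are printed with E2F matches (TTTCCCGC, TTTCGCGC, TTTGCCGC or TTTGGCGC) in capitals. All are read along the gene, and matches on either strand were taken.
Cdk1: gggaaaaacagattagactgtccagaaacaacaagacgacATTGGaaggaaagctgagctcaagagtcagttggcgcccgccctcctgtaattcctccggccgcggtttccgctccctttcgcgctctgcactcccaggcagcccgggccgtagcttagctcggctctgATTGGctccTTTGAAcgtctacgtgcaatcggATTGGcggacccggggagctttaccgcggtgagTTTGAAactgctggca
Ccnb2: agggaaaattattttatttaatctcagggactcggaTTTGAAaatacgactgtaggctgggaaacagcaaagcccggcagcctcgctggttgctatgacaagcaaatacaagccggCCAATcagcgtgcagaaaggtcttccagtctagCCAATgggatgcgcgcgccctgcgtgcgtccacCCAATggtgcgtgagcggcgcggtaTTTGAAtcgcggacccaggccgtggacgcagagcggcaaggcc
Hells: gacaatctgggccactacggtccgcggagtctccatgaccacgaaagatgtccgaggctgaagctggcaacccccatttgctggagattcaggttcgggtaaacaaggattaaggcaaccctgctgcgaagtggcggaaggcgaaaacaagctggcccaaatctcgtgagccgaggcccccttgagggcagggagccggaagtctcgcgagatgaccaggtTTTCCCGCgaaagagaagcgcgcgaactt
Mcm2: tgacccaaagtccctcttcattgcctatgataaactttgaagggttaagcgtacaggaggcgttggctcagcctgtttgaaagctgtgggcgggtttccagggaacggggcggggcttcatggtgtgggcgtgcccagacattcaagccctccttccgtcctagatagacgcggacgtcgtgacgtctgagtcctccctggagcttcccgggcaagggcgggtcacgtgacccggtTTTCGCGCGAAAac

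Cdk1 and Ccnb2 each held 2 CHR matches and 3 CCAAT matches, and in both genes 1 CHR match lay close to the start, at 16 to 11 bases before it in Cdk1 and 43 to 38 in Ccnb2. In Mcm2 the 2 E2F matches overlapped and lay 14 to 3 bases before the start, and in Hells the match lay 29 to 22 bases before it. Cdk1 also held 1 E2F match and Mcm2 2 CHR matches, both left in lower case. An E2F match was found in 46.7% of the 15 S-phase windows, in 5.56% of the 18 mitotic windows, where Cdk1 was the gene that held it, and in 1.73% of all 33469 windows. CHR matches were found in 44.4% of mitotic, 20% of S-phase and 17.4% of all windows, and CCAAT in 83.3%, 66.7% and 34%. A match of letters is a description of the window and does not show that a factor binds there. The promoters of Mcm4, Rrm2, Ccne2, Cdc6, Ccna2, Aurkb, Tpx2 and Ube2c are not shown.

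The values were read as FPKM, reads per gene scaled by transcript length and library total. Their sums were 391123 to 1004890 in the adrenal libraries, 356725 to 476434 in the hearts used and 486061 to 603063 in the pancreas. The number of reads is unknown, so no counting interval or floor can be given. The column of heart BKC100 replicate 2 equalled that of adrenal BKC100 replicate 2 in 45777 of 45777 genes and was left out of the heart, so that heart BKC100 is a lone library. That library also differed from its label: atrial markers, led by Nppa and Myl7, summed to 33392 FPKM against 53.9 to 232 in the other hearts, and ventricular markers, led by Myl2 and Tnni3, to 7502 against 25160 to 37321. Library names came in a short form and a long form (for example V- and VEH), whose meaning is not stated. Both adrenal BKC100 libraries had long names and all other adrenal libraries short ones, so in the adrenal gland the form of the name and this dose cannot be told apart. In bulk tissue, fewer dividing cells and less RNA per cell cannot be told apart either.

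In the adrenal gland, division genes were lower at BKC100. Both BKC100 libraries lay below both vehicle libraries in 18 of the 22 mitotic genes and 12 of the 17 S-phase genes, and no member lay above. Of the 12578 genes tested 47.5% lay below and 13.5% above, the values of BKC100 being lower as a whole. Here and in later counts of this kind, members under a mean of 1 FPKM are included, while the shares leave such genes out. After each library was divided by its median ratio to the others, the count was 17 of 22 mitotic and 9 of 17 S-phase genes, against 31.5% of the genes tested. Summed over the 22 mitotic genes, the level was 76.2 and 40.0 FPKM with vehicle, 32.8 and 53.4 with BKC50 and 22.8 and 24.0 with BKC100. The BKC100 libraries were the lowest of the 6, but the vehicle libraries differed from each other by more than vehicle replicate 2 differed from BKC100. The 17 S-phase genes summed to 216 and 178, 152 and 199, and 173 and 127 FPKM, and without Pcna, the most abundant of them, to 143 and 110, 81.4 and 104, and 67.7 and 74.1. In both sums vehicle lay above BKC100 and BKC50 overlapped other groups only where Pcna was counted. After the median-ratio division the sums with Pcna overlapped, at 192 and 164 FPKM with vehicle and 209 and 126 with BKC100. Without Pcna they still stood apart, at 127 and 101 against 82.1 and 73.4.

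**Figure D1:**
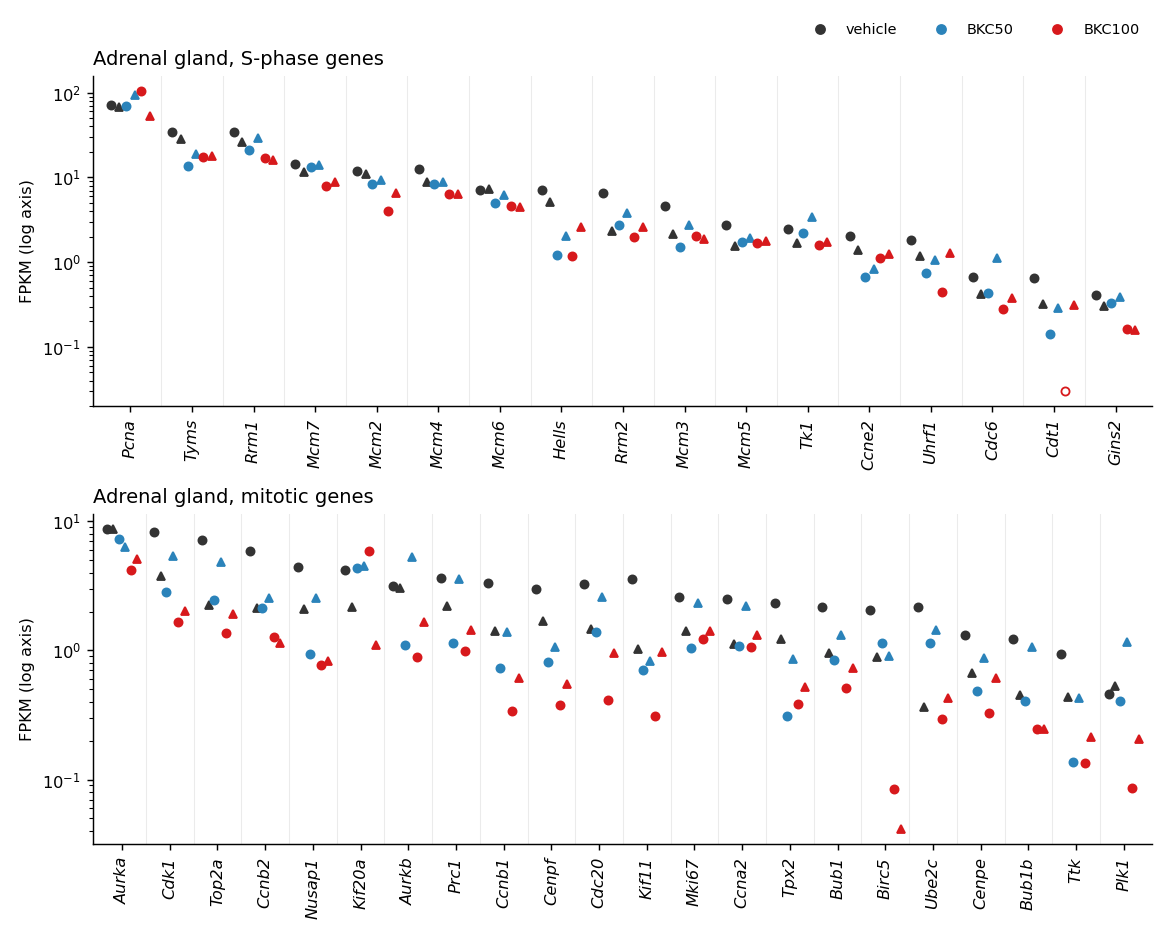
FPKM on a log axis for 17 S-phase genes (top) and 22 mitotic genes (bottom) in the 6 adrenal libraries, with vehicle in black, BKC50 in blue and BKC100 in red, replicate 1 as circles and replicate 2 as triangles. An open symbol at the bottom is a value listed at 0 (Cdt1). The red points lie below both black points in 18 of 22 mitotic and 12 of 17 S-phase genes, and the black circle is the highest point in 18 and 13 of them.

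For the test, log2(FPKM + 1) was fitted with limma over the 6 adrenal libraries, and calls were made below 0.05 after Benjamini-Hochberg adjustment over all genes tested. A mean of at least 1 FPKM was needed, which 14 S-phase and 15 mitotic genes reached. Of these 29, 5 fell at BKC100 and 0 rose: Hells, Mcm2, Rrm1 and Tyms from S phase and Cenpf from mitosis. Among all genes, 9.78% were called, 7.98% falling and 1.8% rising. Of the 29 members 28 had a negative change, a share not set here beside that of all genes. Their median was -0.79 log2 (-0.56 for S phase and -0.92 for mitosis) against -0.28 for all genes tested. With the median-ratio division these medians were -0.53, -0.33, -0.77 and -0.04 (the last for all genes), and 0 members were called.

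Hells, a chromatin remodeller of the SNF2 family needed for DNA methylation, was at 7.03 and 5.18 FPKM with vehicle, 1.23 and 2.06 with BKC50 and 1.19 and 2.64 with BKC100. Both doses lay below both vehicle libraries, and the doses overlapped each other. The change was -1.32 ± 0.33 log2 (SE) at BKC100 (limma adjusted p = 0.0316) and -1.43 ± 0.33 at BKC50 (adjusted p = 0.155). With the BKC100 libraries left out of the fit, the BKC50 change of Hells passed, with an adjusted p of 0.0153. Tyms, which makes thymidylate, had a like order, with 34.0 and 28.7 FPKM, 13.6 and 19.1, and 17.3 and 17.8. Its change was -0.80 ± 0.23 at BKC100 (adjusted p = 0.0490) and -0.91 ± 0.23 at BKC50 (adjusted p = 0.169). Both doses share the vehicle libraries, so their changes are not independent.

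Among the helicase genes, Mcm2 was at 11.8 and 11.1 FPKM with vehicle, 8.26 and 9.24 with BKC50 and 4.02 and 6.64 with BKC100. The groups were ordered by dose without overlap, and the BKC100 change was -1.01 ± 0.28 log2 (limma adjusted p = 0.0398). The other helicase subunits tested did not pass: Mcm4 had a change of -0.66, Mcm6 of -0.57, Mcm7 of -0.55, Mcm3 of -0.51 and Mcm5 of -0.18. Mcm7 was level at BKC50, with 14.3 and 11.5 FPKM, 13.4 and 14.1, and 8.002 and 8.92, and Mcm5 overlapped between all groups.

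Rrm1, the large subunit of ribonucleotide reductase, was at 34.5 and 26.5 FPKM with vehicle, 21.1 and 29.1 with BKC50 and 17.0 and 15.9 with BKC100. Only the BKC100 pair stood apart, and the change was -0.84 ± 0.24 log2 (limma adjusted p = 0.0443). Its partner subunit Rrm2 went from 6.49 and 2.32 FPKM to 2.00 and 2.61, which overlap, with a change of -0.60 ± 0.38 (adjusted p = 0.307). Thymidine kinase Tk1 (-0.20) and the hemimethylated DNA reader Uhrf1 (-0.45) did not pass. Pcna was the one member with a positive change, 0.10 ± 0.30, at 72.4 and 67.7 FPKM with vehicle, 70.2 and 94.8 with BKC50 and 105 and 53.4 with BKC100. The BKC100 pair held both the highest and the lowest Pcna value of the organ. Among genes that start replication, Ccne2 was lower at both doses, with 2.04 and 1.39 FPKM, 0.662 and 0.832, and 1.11 and 1.26, and passed at neither. Cdc6, Cdt1 and Gins2 stayed under the 1 FPKM mean, and their BKC100 values, 0 to 0.375 FPKM, lay below their own vehicle values in each case.

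Cenpf, a kinetochore protein that builds up before division, was at 3.01 and 1.70 FPKM with vehicle, 0.819 and 1.06 with BKC50 and 0.377 and 0.547 with BKC100. The 3 groups did not overlap and fell in order of dose. The change was -1.17 ± 0.30 log2 at BKC100 (limma adjusted p = 0.0330) and -0.76 ± 0.30 at BKC50 (adjusted p = 0.369). Cdk1 was at 8.29 and 3.78 FPKM, 2.82 and 5.34, and 1.65 and 2.03, and its partner Ccnb1 at 3.33 and 1.42, 0.736 and 1.40, and 0.338 and 0.615. Both were lowest in the BKC100 pair, and neither passed: -1.23 ± 0.37 with an adjusted p of 0.0551 for Cdk1, and -1.14 ± 0.34 with 0.0525 for Ccnb1. Ccnb2 had a change of -1.06 (adjusted p = 0.0779), and Ccna2, at 2.51 and 1.12 against 1.07 and 1.32 FPKM, overlapped (-0.32).

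The spindle genes Nusap1 and Kif11 had changes of -1.19 (limma adjusted p = 0.0591) and -0.92 (0.137), and Prc1, which bundles the central spindle, of -0.80 (0.179). The mitotic kinase Aurka had close replicates, with 8.69 and 8.71 FPKM, 7.24 and 6.34, and 4.17 and 5.06. Its groups were ordered by dose without overlap, and its change of -0.79 ± 0.26 had an adjusted p of 0.0710. Aurkb was at 3.14 and 3.07, 1.10 and 5.31, and 0.888 and 1.67 FPKM, so that BKC50 spanned the vehicle values. Cdc20, the activator of the anaphase-promoting complex, had a change of -0.96 (adjusted p = 0.0965) and Bub1 of -0.62 (0.207). The usual proliferation marker Mki67 showed little, at 2.59 and 1.40 against 1.21 and 1.42 FPKM (-0.34 ± 0.33, adjusted p = 0.511). Top2a, which untangles chromosomes, had 7.12 and 2.24 FPKM with vehicle and 1.36 and 1.91 with BKC100 (-0.97 ± 0.44, adjusted p = 0.177). Kif20a went against the rest in 1 library, at 4.19 and 2.17 with vehicle and 5.92 and 1.11 with BKC100.

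**Figure D2:**
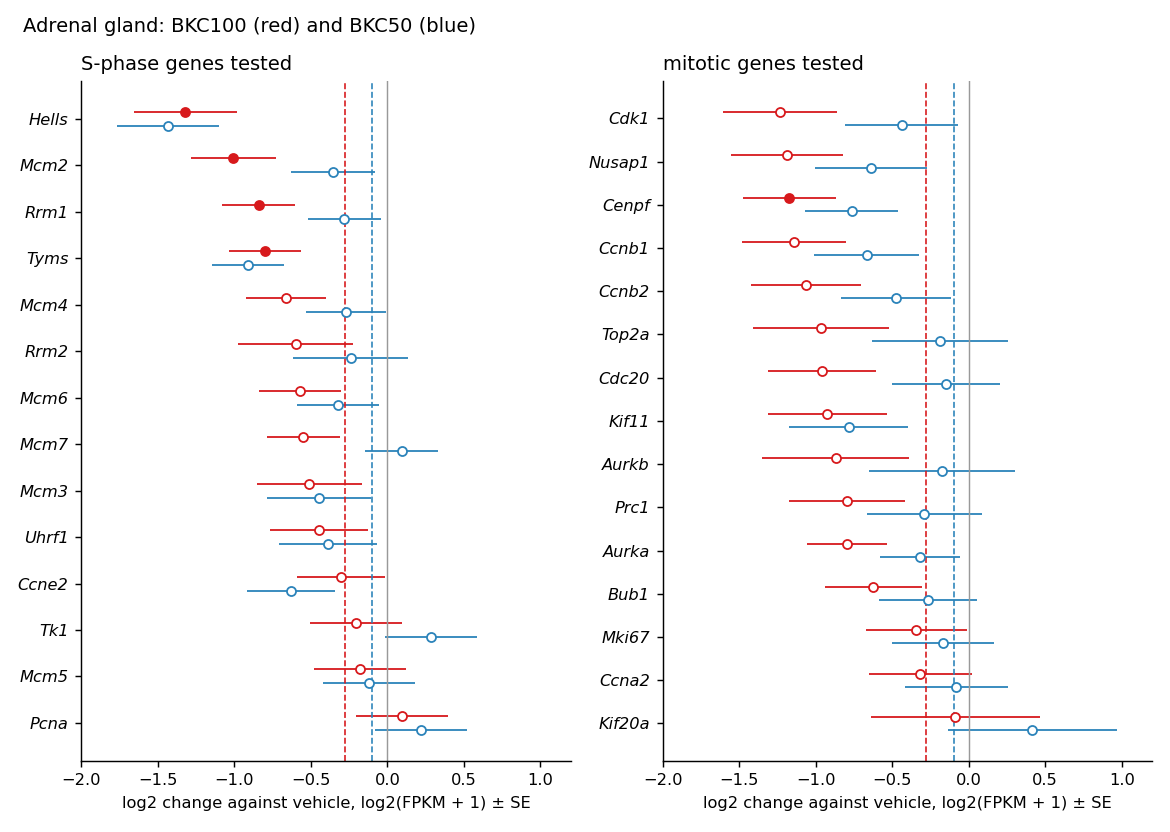
Change against vehicle in log2(FPKM + 1) with its standard error for the 14 S-phase and 15 mitotic genes tested in adrenal gland, at BKC100 (red) and BKC50 (blue), filled where the gene was called. Dashed lines are the medians of all genes tested, -0.28 and -0.10. Of the 29 red points 28 are below 0 and 5 are filled, and Hells and Tyms have blue points as far left as their red ones.

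Below the mean of 1 FPKM were 7 mitotic genes, which were not tested: Bub1b, Plk1, Cenpe, Tpx2, Birc5, Ube2c and Ttk. Birc5, which encodes survivin, was at 2.04 and 0.895 FPKM with vehicle, 1.13 and 0.909 with BKC50 and 0.0846 and 0.0412 with BKC100. Its BKC100 pair was far below all other libraries. Tpx2, which activates Aurka on the spindle, was at 2.31 and 1.22, 0.311 and 0.855, and 0.385 and 0.518 FPKM, lower at both doses. Ube2c was the exception, with overlapping values of 2.17 and 0.368 against 0.296 and 0.429 FPKM.

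The vehicle libraries differed from each other. Replicate 1 was the highest of the 6 adrenal libraries in 18 of 22 mitotic and 13 of 17 S-phase genes. Its values exceeded those of replicate 2 by a median of 0.73 log2 in mitotic and 0.36 in S-phase genes tested, against 0.02 over all genes. Without vehicle replicate 1, 0 members were called at BKC100, and without replicate 2, 8 were: Cdk1, Ccnb1, Ccnb2, Cenpf, Kif11, Nusap1, Top2a and Hells. Without BKC100 replicate 1, 0 were called as well. The share of all genes called in these fits is not given beside the counts, so they do not single out the members. Macrophage markers, led by Lyz2 and C1qc, summed to 406 and 357 FPKM with vehicle and 241 and 284 with BKC100, and 1 of the 13 tested fell. Markers of red cells, led by Hbb and Hba-a1, summed to 671 and 508 against 336 and 403, lymphocyte markers to 13.8 and 13.5 against 9.32 and 11.2, and lymph node stroma markers to 12.6 and 11.8 against 4.26 and 5.66. Cortex markers, led by Hsd3b1 and Star, summed to 19354 and 23543 against 23889 and 22007. A mixed list of capsule, progenitor and outer cortex (glomerulosa) genes, led by Dab2 and Wnt4, summed to 47.9 and 39.1 against 50.3 and 67.3. It does not single out progenitors. Of the cortex list and the mixed list, 0 of the 8 and 7 tested were called. Fat cell markers, led by Fabp4, summed to 200 and 224 against 125 and 526, with BKC100 replicate 2 the highest adrenal library. These sums are not rescaled, while BKC100 values were lower as a whole. After the median-ratio division lymphocyte markers were at 12.2 and 12.4 FPKM with vehicle and 11.3 and 11.1 with BKC100. As a share of the protein-coding sum they overlapped. Cortex markers lay above vehicle after the division, at 17211 and 21619 against 28965 and 21797 FPKM. Macrophage, red cell and lymph node stroma markers stayed below vehicle under both scalings. The part of these cell types in the division genes was not tested.

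Other genes of the same processes were taken from lists that hold no member. Of 35 further replication genes tested, 8 fell and 0 rose, with a median of -0.66 log2, where 7.98% of all genes fell and their median was -0.28. Tipin, a fork protection factor, had 16.5 and 15.97 FPKM with vehicle, 7.25 and 9.76 with BKC50 and 5.03 and 4.22 with BKC100 (-1.62 ± 0.26, limma adjusted p = 0.00618). Slbp, which binds histone mRNA, had 73.4 and 55.8, 27.2 and 40.9, and 20.9 and 26.2 (-1.41 ± 0.25, adjusted p = 0.00938). Both genes were ordered by dose with no overlap. Rnaseh2a, a subunit of the enzyme that removes ribonucleotides from DNA, differed in that BKC50 matched vehicle, at 92.6 and 105, 94.0 and 91.7, and 40.1 and 46.0 (-1.18 ± 0.19, adjusted p = 0.00730). Vehicle and BKC50 also share the short name form. In the heart fit of name form given below, Rnaseh2a was lower in long-named libraries (-0.76 ± 0.09, limma adjusted p = 0.00402), as were 29% of all genes. Tipin (-0.22), Slbp (-0.11) and Pola2 (-0.37) did not pass there. Pola2, of the primase complex, fell by 1.34.

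Of 29 further mitotic genes tested 6 fell and 0 rose, with a median of -0.77 log2, beside the same 7.98% and -0.28 for all genes. Dlgap5, a spindle protein, fell by 1.41, the kinetochore scaffold Knl1 by 1.56, the phosphatase Cdc25c by 1.17 and the tubulin-binding Stmn1 by 0.90, with limma adjusted p from 0.0165 to 0.0440. With the median-ratio division, 3 of the 35 replication and 1 of the 29 mitotic genes fell, against 1.01% of all genes.

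Among regulators and brakes on division the share that fell was near that of all genes, 7.98%. Of 17 regulators tested 1 fell, the MuvB subunit Lin9, at 3.11 and 2.27 FPKM with vehicle, 1.17 and 1.06 with BKC50 and 0.776 and 0.803 with BKC100 (-1.03 ± 0.29, limma adjusted p = 0.0410). Ccnd2 was level (0.23), Ccnd1 had a change of -0.50 and Myc of -0.82 (adjusted p = 0.168). E2f1, Foxm1 and Mybl2 were at 0.0771 to 0.810 FPKM in all 6 libraries and were not tested. Of 22 brakes tested 2 fell, Ccng1 by 1.27 and Lin37, also a MuvB subunit, by 1.43, and 0 rose. Cdkn1a, the p53 target p21, was at 1.72 and 5.49 with vehicle and 3.02 and 1.57 FPKM with BKC100, which overlap. Cdkn1c was at 43.4 and 36.2 FPKM with vehicle, 21.3 and 17.6 with BKC50 and 28.6 and 21.8 with BKC100, lower at both doses, and Cdkn1b at 11.1 and 6.90, 4.499 and 3.94, and 4.56 and 5.21. Neither Cdkn1c (limma adjusted p = 0.149 and 0.0886) nor Cdkn1b (0.279 and 0.117) passed at BKC50 or BKC100.

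At BKC50, where the library names have the same form as those of vehicle, 0 of the 29 members were called, as were 0.0318% of all genes (4 of 12578), and 4 members had an unadjusted p under 0.05: Hells, Tyms, Cenpf and Ccne2. Of the 29, 25 had a negative change, with a median of -0.29 log2 against -0.10 for all genes. BKC50 lay wholly below vehicle in 7 of 17 S-phase and 6 of 22 mitotic genes, against 29.6% of genes tested. Between the doses, 0 members were called for BKC100 against BKC50 (2.96% of all genes), and 4 had an unadjusted p under 0.05. All 15 mitotic genes tested had a negative change, with a median of -0.50, and the 14 S-phase genes had a median of -0.18, against -0.16 for all genes. Rnaseh2a fell between the doses, by 1.09 (limma adjusted p = 0.0173), where dose and name form cannot be told apart. For neither comparison is the share of all genes with a negative change or an unadjusted p under 0.05 given.

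In the heart, BKC50 did not differ detectably from vehicle, in a fit that left the form of the library name in the spread. A lack of calls there does not show that the groups were alike. With limma 0 of the 20 members tested were called and 0 had an unadjusted p under 0.05, and among all 12099 genes 0% were called and 45 had an unadjusted p under 0.05. The median change was 0.05 log2 for 11 S-phase genes and -0.12 for 9 mitotic genes. Cdk1, at 1.51 and 3.23 FPKM with vehicle and 1.79 and 2.16 with BKC50, and Mki67, at 1.26 and 1.79 and then 1.06 and 1.80, show that the replicates spread more than the groups.

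That spread followed the library names. Replicate 1 had a short name and replicate 2 a long one in both heart groups. Mitotic members were mostly higher in the long form, while S-phase members were lower at a share near that of all genes. In 13 of 22 mitotic genes both long-named libraries lay above both short-named ones, and in 0 below, while in 10 of 17 S-phase genes they lay below, and in 1 above. Over all genes tested, 23.6% lay above and 50.1% below. In a fit of name form alone, chosen after seeing the data, 3 mitotic genes were higher in the long form, Top2a (0.59 ± 0.13, limma adjusted p = 0.0201), Prc1 (0.48) and Nusap1 (0.44), and 2 S-phase genes lower, Rrm1 (-0.57 ± 0.08, adjusted p = 0.00527) and Mcm5 (-0.59). Of all genes 38.9% were called in that fit, 9.98% higher and 29% lower. All 8 mitotic genes tested had a positive difference under each scaling tried, while the S-phase median, -0.27, became 0.01 when protein-coding sums were made equal. Top2a was at 1.27 and 1.03 FPKM in the short and 2.47 and 2.02 in the long form, and Mcm5 at 1.91 and 2.02 against 0.939 and 1.01. What the name form stands for was not tested.

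**Figure D3:**
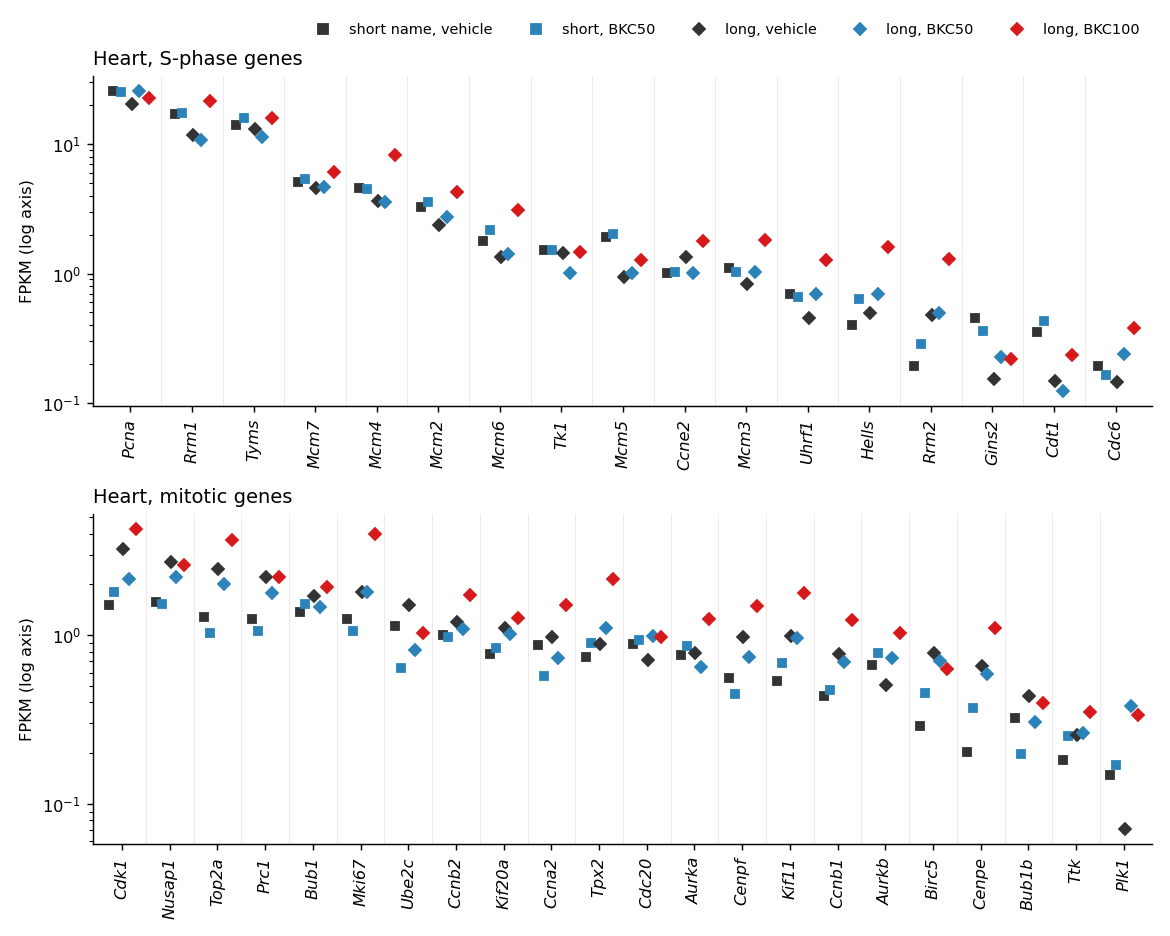
FPKM on a log axis for 17 S-phase genes (top) and 22 mitotic genes (bottom) in the 5 heart libraries used, squares for short and diamonds for long library names, with vehicle black, BKC50 blue and BKC100 red. Diamonds lie above squares in 13 of 22 mitotic genes for vehicle and BKC50, and the red diamond is the highest point in 16 mitotic and 11 S-phase genes.

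The lone heart BKC100 library held higher levels of most members. It lay above both vehicle libraries in 12 of 17 S-phase and 18 of 22 mitotic genes, tested or not, against 37.7% of the genes tested. Among the 3 long-named hearts it was the highest in 15 S-phase and 16 mitotic genes, against 47.3% of genes. Mki67 was at 1.26 and 1.79 FPKM with vehicle, 1.06 and 1.80 with BKC50 and 3.98 in this library, a change of 0.99 ± 0.30 log2 (limma adjusted p = 0.222). Tpx2 went from 0.741 and 0.887 to 2.15 (0.80 ± 0.22, adjusted p = 0.189), Mcm4 from 4.57 and 3.63 to 8.20 (0.86 ± 0.25, adjusted p = 0.209) and Hells from 0.402 and 0.498 to 1.60. All 4 were higher than in every other heart library.

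With limma 0 of the 20 members tested were called, against 0.81% of all genes, and 3 had an unadjusted p under 0.05. The median change was 0.37 log2 against 0.01 over all genes, and 17 of 20 were positive. The shares of all genes that were positive or had such an unadjusted p are not given. With the name form as a covariate 6 rose (Mcm2, Mcm4, Mcm6, Rrm1, Mki67 and Tpx2), in a fit with little left to estimate the spread, where 14.3% of all genes rose. Macrophage markers summed to 252 FPKM against 164 to 213 in the other hearts, lymphocyte markers to 32.8 against 15.02 to 20.1, endothelial markers, led by Pecam1 and Emcn, to 294 against 184 to 232, and red cell markers to 428 against 1672 to 5175. With the atrial markers named above, these move with the library, and their part in the members' values was not tested. Cdkn1a was at 15.2 and 13.1 FPKM with vehicle, 12.4 and 11.3 with BKC50 and 3.29 here (-1.82 ± 0.22, limma adjusted p = 0.0552).

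In the pancreas, the members were near the bottom of the scale. The 22 mitotic genes were at 0 to 0.312 FPKM in all 4 libraries, with 2 to 11 of them listed at 0 per library, and none reached the mean of 1 FPKM. Mcm7, Tyms and Pcna could be tested, and 0 were called with limma, against 0.392% of 5610 genes, and 0 had an unadjusted p under 0.05. Pcna was at 1.97 and 1.21 FPKM with vehicle and 1.58 and 0.971 with BKC100, and Tyms at 1.72 and 0.877 and then 1.05 and 0.943. Both overlapped between groups. Mcm7 was higher in both BKC100 libraries, at 1.77 and 1.16 FPKM against 1.05 and 0.905 with vehicle, without passing (0.31 ± 0.27 log2). The acinar markers, led by Amy2a3 and Ctrb1, took 119336 to 172597 FPKM per library. Among the brakes, the antiproliferative immediate-early gene Btg2 rose, from 25.6 and 28.7 to 123 and 43.5 FPKM (1.40 ± 0.36, limma adjusted p = 0.0292).

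The BKC100 changes of adrenal gland and pancreas were also compared in 1 fit, where the difference itself is tested. With limma 0 of 19 members were called (2.22% of all genes), and 9 had an unadjusted p under 0.05. The share of all genes with such an unadjusted p is not given. Of the 19, 3 averaged at least 1 FPKM in the pancreas; the others entered through the adrenal gland alone, and near 0 FPKM a change in the pancreas is small on this scale, so the differences largely repeat the adrenal changes. Hells came nearest, with a difference of -1.22 ± 0.37 log2 (adjusted p = 0.0870). Of the other genes of the lists, Pola2 (-1.42), Tipin (-1.35), Slbp (-1.43) and Dlgap5 (-1.39) passed. Only Slbp among them averaged at least 1 FPKM in the pancreas. The differences of Pola2, Tipin and Dlgap5 thus also largely repeat their adrenal falls. A fit of adrenal gland against heart, chosen after seeing the data, called 1 of 30 members, Hells, with a difference of -2.16 ± 0.49 log2 (limma adjusted p = 0.0451), against 2.95% of all genes. The heart arm is 1 library, its spread is taken from the other groups, and Hells averaged 0.832 FPKM in those hearts, so that it entered through the adrenal gland, at 4.01. In 10 of 17 S-phase and 15 of 22 mitotic genes the BKC100 libraries were below vehicle in the adrenal gland and above it in the heart, against 15% of the genes tested, and in 0 the reverse.

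**Figure D4:**
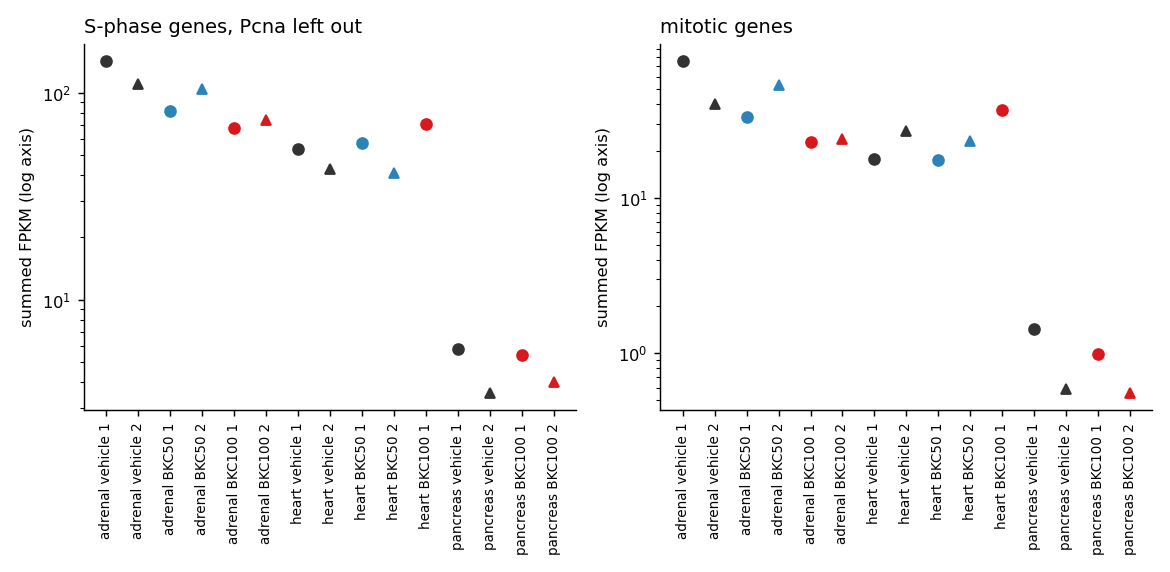
Summed FPKM on a log axis over 16 S-phase genes (left, Pcna left out as the most abundant) and 22 mitotic genes (right) in the 15 libraries, circles for replicate 1 and triangles for replicate 2, with vehicle black, BKC50 blue and BKC100 red. Mitotic sums are 22.8 to 76.2 in adrenal gland, 17.6 to 36.9 in heart and 0.551 to 1.42 in pancreas, and for mitotic genes heart BKC100 lies above both adrenal BKC100 libraries.

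Among vehicle libraries the organs were ordered adrenal gland, heart, pancreas. The copied column held equal values in the adrenal and heart tables, so values were not rescaled by table there. The median level of the 22 mitotic genes was 3.07 and 1.41 FPKM in adrenal gland, 0.768 and 0.972 in heart and 0.0540 and 0.00283 in pancreas, and that of the 17 S-phase genes 6.49 and 2.32, 1.51 and 1.33, and 0.0943 and 0.0622. The organs did not overlap in either class. Over all members, tested or not, both pancreas libraries lay below both adrenal ones in 17 of 17 S-phase and 22 of 22 mitotic genes (92% of genes tested) and below both hearts in 17 and 21 (90%), and the hearts lay below the adrenal glands in 14 and 16 (58.8%). With limma 26 of 26 members tested were lower in pancreas than in adrenal gland (89.5% of all genes), 19 lower in heart than in adrenal gland (46.2%) and 24 lower in pancreas than in heart (86.2%). Of these 26, 26 averaged at least 1 FPKM in adrenal gland, 16 in heart and 2 in pancreas, so the filter largely fixed the direction against pancreas. With the median-ratio division 24, 10 and 9 were lower, against 34.4%, 25.8% and 33% of all genes, and Mcm2, Mcm4, Mcm6 and Mcm7 turned to higher in pancreas than in heart, by 0.28, 0.0056, 0.17 and 0.38 log2, without passing.

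Aurka and Hells differed most between heart and adrenal gland, at 8.69 and 8.71 against 0.758 and 0.785 FPKM for Aurka (-2.45 ± 0.25) and 7.03 and 5.18 against 0.402 and 0.498 for Hells (-2.28 ± 0.25). Mki67 and Bub1 overlapped between these organs, at 2.59 and 1.40 against 1.26 and 1.79 FPKM for Mki67, and 2.15 and 0.961 against 1.38 and 1.70 for Bub1.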

How the data were processed

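RNA was sequenced from stranded mRNA libraries, per the labels' protocols. Tools listed in the submitters' processing notes, with no role, are edgeR 3.40.2, StringTie 2.1.3b and HISAT2 2.1.0. A genome build is not given in the sources used here. The deposited values were read as FPKM made by the authors, a unit inferred from values that are not whole and whose sums differ. Whole reads could not be recovered, so depth is unknown. All 16 columns were matched to samples by library name, and 0 were unmatched; 15 were used. From these, log2(FPKM + 1) was fitted per organ with limma 3.58.1 (R 4.3.3; trend, robust), over all groups of the organ, for genes that averaged 1 FPKM or more, with Benjamini-Hochberg adjusted p under 0.05. Changes on this scale understate those of low genes, and errors are standard errors. Replicate numbers were not used as pairs in the main fits. Same-number correlations were -0.15, -0.10 and 0.14 in adrenal gland and 0.74 in heart, where the number coincides with the name form. In pancreas, where all names had the long form, the correlation was 0.42, and its source was not tested. The members and gene lists were chosen with earlier results of these data known. Named were all called members, up to 10 with the smallest p where fewer were called, preset landmark genes, and from each further list up to 4 called genes; other genes were chosen after their values were seen. Printed promoters were the mitotic and S-phase members with the smallest adrenal p that hold the motif. The fit was tested on simulated data with planted changes larger than any BKC change of a member within an organ. That test therefore does not cover changes of the members' size. Alternatives were pseudocount, filter, scaling, shrinkage, block, groups and left-out libraries.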

Additional observations from a re-analysis of the deposited data

Results flagged for a closer look

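Hells differed between organs in its BKC100 change, by -2.16 log2 (adrenal gland minus heart, SE 0.49, limma adjusted p = 0.0451), in a fit in which the heart arm is 1 library and the other groups supply the spread. Hells averaged 0.832 FPKM in those hearts and reached the minimum of 1 FPKM through the adrenal gland. Both adrenal BKC100 libraries were below both vehicle libraries, and the heart BKC100 library was above both of its own. The difference passed in 3 of 12 alternatives, with adjusted p from 0.0231 to 0.203. It rests on the lone heart library with atrial markers, and that library's part in it was not tested.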

How the results depend on the processing

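Of 29 members tested in adrenal gland at BKC100, 5 were called, but 0 with no filter on low values, with median-ratio scaling, with quantile normalization, with protein-coding sums made equal or with the replicate block, and 2 without robust shrinkage; leaving out 1 library gave 0 to 8. The cause was not tested. At BKC50 1 member (Hells) was called with only the 2 groups compared, and 0 to 1 with a library left out. For heart BKC100, 5 were called with the replicate block, where 16.6% of all genes rose, and 6 with name form as a covariate, and the value without that library could not be had. The block changed no other call where it was fitted. For the BKC100 difference between adrenal gland and pancreas, leaving out 1 library gave 0 to 7 calls. BKC100 against BKC50, heart and pancreas stayed at 0 with any 1 library left out. Between vehicle organs, calls for pancreas against adrenal gland were 14 with quantile normalization (13 to 29 with a library left out), for heart against adrenal gland 10 with median-ratio scaling and 10 with quantile normalization (8 to 22), and for pancreas against heart 9 and 3 (13 to 23). There Mcm2, Mcm4, Mcm6 and Mcm7 reversed, to 0.28, 0.0056, 0.17 and 0.38 log2 with median-ratio scaling and 0.37, 0.10, 0.33 and 0.47 with quantile normalization. Except where a share is stated here or above, the counts from these alternatives are given without the share of all genes called in the same fit. They therefore do not single out the members. With 2 libraries a group and unknown depth, levels under 1 FPKM carry the least weight.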

Other observations

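2 genes outside the members stood apart in the heart and were chosen after their values were seen. Pola2, of the primase complex, was at 30.2 and 21.1 FPKM with vehicle, 32.2 and 27.0 with BKC50 and 5.51 in the lone BKC100 library (-2.01 ± 0.30 log2, limma adjusted p = 0.0845), while most members were higher there. Dlgap5, a spindle protein, was at 1.10 and 1.49, 1.01 and 1.28, and 4.52 FPKM (1.27 ± 0.24, adjusted p = 0.111). In the adrenal gland both genes fell at BKC100.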
